A study of Mus musculus with 2 samples.

Results

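The major urinary protein (Mup) genes measured here were 10 of the 27998 genes counted in the study: Mup1, Mup2, Mup3, Mup7, Mup10, Mup11, Mup12, Mup14, Mup17 and Mup20. They were chosen on measured values of these data, which include both time points and the barcode pools used below. The difference between time points is therefore given as a description without a test. The files named 21 Mup genes in all, and the other 11 are given where they bear on a result.

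Hepatocytes of C57BL/6 mice (C57BL/6J in the study's methods) on a normal diet were obtained by collagenase perfusion of the liver in 2 steps and their transcripts were counted in droplets (scRNA-Seq) with 10X Genomics 3′ version 2 reagents. One library came from healthy liver at 0 h (undamaged) and 1 from liver 48 h after partial hepatectomy (PHx48h), in which most of the organ is cut away and the rest grows back. The labels list the surgery protocol for both libraries but describe the first as undamaged, give an age of 10 to 12 weeks and name no genetic modification, and the study's methods state male animals, a somewhat different age and 1 hepatocyte preparation per library. With 1 library per time point there was no replicate, so each difference compares these 2 libraries only.

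Major urinary proteins are small secreted lipocalins, barrel-shaped carriers that hold volatile pheromones and release them slowly from urine marks. In mice the liver is their main source, and in males they are among the most abundant products of hepatocytes. Their transcription depends on the pulsatile male pattern of growth hormone, which acts through STAT5, and on androgen, thyroid hormone and glucocorticoid. MUP20, also called darcin, is itself a pheromone of male urine.

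All 21 genes lie in a cluster on chromosome 4, between 59956804 and 62150863 of GRCm38 in GENCODE M21, and all 10 members are on the minus strand. Over the 45 pairs of members the coding sequences were 82.6 to 99.6% identical at the nucleotide level, with a median of 98.7%. Mup3 and Mup20 stood apart from the remaining 8, which differed from their closest member by 2 to 6 bases over coding lengths of 540 to 543 bases. The last 60 coding bases before the stop codon, the coding stretch nearest to the transcript end that the assay counts, are shown because they were identical in these 8 genes and differed at 4 bases in Mup3 and in Mup20. They were read from spliced GENCODE M21 transcripts, and capitals mark bases that differ from Mup11.
Mup11 (the same in Mup1, Mup2, Mup7, Mup10, Mup12, Mup14 and Mup17): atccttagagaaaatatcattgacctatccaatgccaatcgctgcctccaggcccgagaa
Mup3: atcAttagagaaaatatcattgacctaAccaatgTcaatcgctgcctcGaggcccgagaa
Mup20: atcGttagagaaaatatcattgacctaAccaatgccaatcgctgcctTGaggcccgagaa

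The near identity limits what single members can say. Within the last 500 bases of each member's protein-coding transcripts, the share of 98-base windows that occurred in no other gene was 100% for Mup3, 92.1% for Mup20, 68.5% for Mup17, 42.1% for Mup1, 28.0% for Mup11, 21.02% for Mup7, 12.4% for Mup12 and 12.0% for Mup14. It was 0% for Mup10 and for Mup2. How reads from shared windows were assigned is not given in the sources used here, so the values of Mup3, Mup20 and Mup17 are the best separated and those of Mup10 and Mup2 the least. The family sum over the 10 members does not depend on how counted reads were divided among the 10. It does depend on reads shared with the other Mup genes, and on whether shared reads were counted at all. If they were not, the sum, the shares of it and the order of members would lean towards the members with more windows of their own.

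Upstream sequence was listed by RefSeq for 7 of the 10 members, and Mup1, Mup12 and Mup20 had no entry. The bases from 130 to 41 before the RefSeq start (GRCm38.p6) are shown for Mup11 and Mup17, which were higher in perivenous barcodes in the results that follow, for Mup3, which was lower there, and for Mup7 and Mup14, whose zonal ratios at 0 h had intervals that included 1. Capitals mark bases that differ from, or are inserted against, the window of Mup11, and absent bases are not marked.
Mup11, chr4:60662436-60662525, minus strand: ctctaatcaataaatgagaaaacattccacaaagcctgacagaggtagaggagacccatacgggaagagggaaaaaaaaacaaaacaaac
Mup17, chr4:61595873-61595962, minus strand: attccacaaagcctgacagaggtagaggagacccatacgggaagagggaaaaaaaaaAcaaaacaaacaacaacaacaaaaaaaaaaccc
Mup3, chr4:62087358-62087447, minus strand: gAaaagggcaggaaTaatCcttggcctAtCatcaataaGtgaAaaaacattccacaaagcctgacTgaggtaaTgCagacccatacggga
Mup7, chr4:60070516-60070605, minus strand: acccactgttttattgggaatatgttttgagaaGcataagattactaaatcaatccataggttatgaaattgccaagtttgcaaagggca
Mup14, chr4:61304039-61304128, minus strand: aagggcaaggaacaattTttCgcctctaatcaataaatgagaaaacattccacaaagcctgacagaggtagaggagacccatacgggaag
Against the Mup11 window these bases held 2 differences in Mup17 (1 marked base and 1 base absent), 12 in Mup3 (10 marked and 2 absent), 1 in Mup7, 2 in Mup14, 4 in Mup2 and 9 in Mup10. RefSeq starts lie at different places in these genes, so each printed stretch was matched to the part of the 300-base Mup11 window that fits it, and the stretches do not cover the same positions. No relation to the zonal values was read from the counts. In the whole windows, from 250 bases before to 50 after the start and on both strands, TATAAA occurred in 0 of the 7 members and in 13.6% of 32851 RefSeq windows. TTCNNNGAA, the form of a STAT5 site, occurred in 0 of the 7 and in 8.30% of all windows.

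The libraries differed in depth and composition. The undamaged library held 59202 barcodes and 96118593 UMIs (unique molecular identifiers, 1 per captured transcript), and the PHx48h library 1586 barcodes and 18198719 UMIs. Barcodes with over 30% mitochondrial UMIs numbered 3870 and 765, with medians of 1213.5 and 4411 non-mitochondrial UMIs, and those with under 2% numbered 52587 and 522, with medians of 1413 and 5271.5. The libraries shared 148 barcode sequences. Undamaged barcodes under 2% were unlike the other sets. Thinned to 500 UMIs, their family sum had a variance over mean of 1.06, where random draws from 1 pool give about 1. It was 2.39 in undamaged barcodes over 30%, and 2.13 and 1.90 at 48 h over 30% and under 2%. Ratios under 2% therefore compare unlike sets of barcodes, and whether the undamaged ones were single hepatocytes was not tested. Hepatocyte markers summed to 79201 to 126960 CPM (counts per 1000000 non-mitochondrial UMIs) over the pools. In each pool 10 of 10 were detected, but so were 10 of 10 macrophage and 10 of 10 stromal markers. Detection in a pool therefore does not tell cell types apart. Of 10 hepatocyte markers, 4 were at least 2-fold lower at 48 h and 0 higher under 2%, beside 22.3% and 26.7% of all genes. Over 30%, 0 were lower and 1 higher, beside 5.62% and 32.6%. The summed macrophage, endothelial, stromal, T or NK, B, cholangiocyte and erythroid markers lay between 0 and 246 CPM. Lymphocyte markers were at 0 UMIs in both PHx48h pools, stromal markers were at 25.2 and 153 CPM and erythroid markers at 246 and 27.7 CPM in the under 2% pools at 0 h and 48 h, and the part of these in the results was not tested.

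Members and sum were measured first in barcodes with over 30% mitochondrial UMIs. The 10 genes together took 77349 CPM (95% exact Poisson interval 77122 to 77576) at 0 h and 21553 CPM (21426 to 21681) at 48 h, or 7.73% and 2.16% of non-mitochondrial UMIs. The sum was 3.59-fold lower at 48 h (3.57 to 3.61, exact conditional interval), a log2 ratio of -1.84, while the median over all genes tested was 0.59. In barcodes with under 2% mitochondrial UMIs the sum was 104320 CPM (104250 to 104390) and 28250 CPM (28065 to 28437), 3.69-fold lower (3.67 to 3.72), against a median log2 ratio of 0.11 over all genes. These intervals, and the others given, cover counting error only. In pools, fewer transcripts per cell and fewer cells that make them cannot be told apart by the sum alone.

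Of the 10 members, 9 reached 10 CPM in either library of a pool and Mup2 did not. In barcodes over 30% mitochondrial UMIs, 7 of the 9 were at least 2-fold lower at 48 h and 0 at least 2-fold higher, beside 5.62% and 32.6% of the 7418 genes tested. In those under 2%, 7 of the 9 were at least 2-fold lower and 1 at least 2-fold higher, beside 22.3% and 26.7% of 6392 genes. These shares depend on the scaling. With TMM factors, which move the median of all genes to -0.03 over 30% and -0.11 under 2%, 16.2% of genes were lower and 14.6% higher over 30%, and 26.4% and 22.3% under 2%. With totals that leave out the Mup and the 20 most abundant genes they were 8.93% and 22.7% over 30% and 28.3% and 20.04% under 2%. The members were chosen with values of these data known, and a gene that reached 10 CPM only through 1 library had to differ. The counts therefore support nothing further. The plot of levels by pool shows the order of the members.

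**Figure D1:**
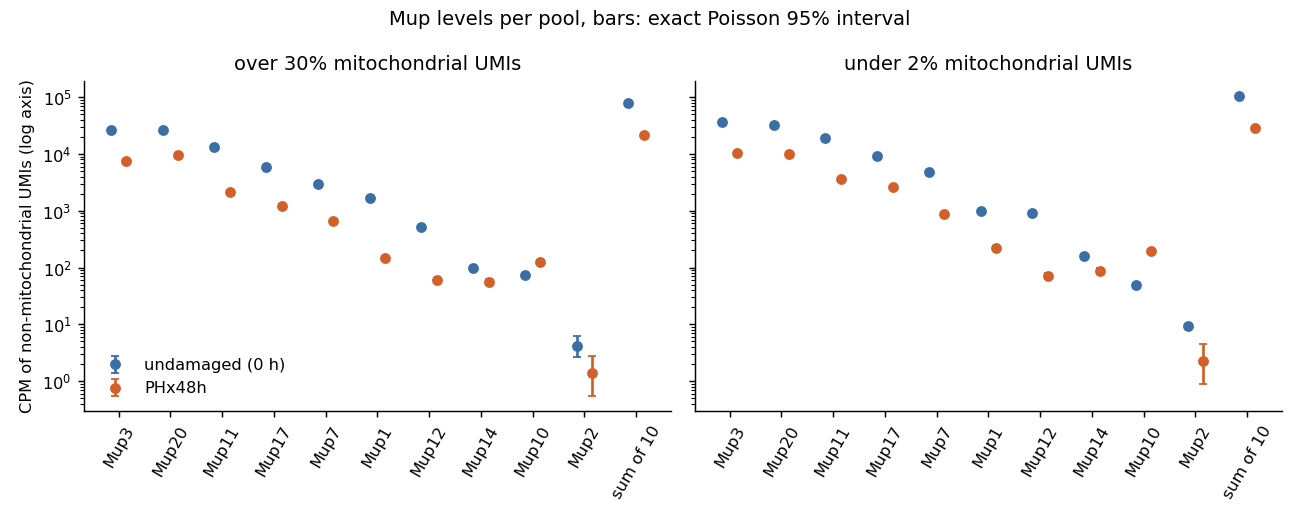
Levels of the 10 Mup genes and of their sum in CPM of non-mitochondrial UMIs (log axis) in the undamaged (blue) and PHx48h (orange) libraries, with barcodes over 30% mitochondrial UMIs on the left and under 2% on the right. Each point is 1 pool and bars are exact Poisson 95% intervals; each of the 10 lies lower at 48 h except Mup10.

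Mup3 and Mup20, the pair with the most separable sequence, were the highest members in every pool. Mup3 (chromosome 4, 62083476 to 62087342) was at 26853 CPM at 0 h and 7542 CPM at 48 h in barcodes over 30%, 3.56-fold lower (3.52 to 3.60). In barcodes under 2% it was at 36735 and 10514 CPM, 3.49-fold lower (3.46 to 3.53). Mup20 (62050234 to 62054158), which encodes darcin, was at 25986 and 9568 CPM in barcodes over 30%, 2.72-fold lower (2.69 to 2.74), and at 32121 and 10070 CPM in those under 2%, 3.19-fold lower (3.15 to 3.23). Mup20 thus had a smaller difference than the sum in both pools, and its share of the sum in barcodes over 30% was 33.6% at 0 h and 44.4% at 48 h. The share of Mup3 was 34.7% and 35.0%. Mup3 and Mup20 changed order with time in the pool over 30%, Mup3 being the higher at 0 h and Mup20 at 48 h.

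Mup11, Mup17 and Mup7 were the most abundant of the near-identical members. Mup11 (60658466 to 60662411) was at 13152 and 2162 CPM in barcodes over 30%, 6.08-fold lower (5.96 to 6.21), and at 19291 and 3629 CPM in those under 2%, 5.32-fold lower (5.22 to 5.42). Its share of the sum was 17.0% at 0 h and 10.0% at 48 h over 30%. Mup17 (61591929 to 61595871) was at 5974 and 1231 CPM over 30%, 4.85-fold lower (4.73 to 4.99), and at 9202 and 2577 CPM under 2%, 3.57-fold lower (3.49 to 3.65). Mup7 (60066469 to 60070475) was at 2996 and 661 CPM over 30%, 4.53-fold lower (4.37 to 4.70), and at 4871 and 885 CPM under 2%, 5.51-fold lower (5.30 to 5.72).

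Mup1 and Mup12 had the largest folds. Mup1 (60498012 to 60501960), whose protein has been linked to glucose metabolism in mice, was at 1707 CPM (1673 to 1741) at 0 h and 147 CPM (137 to 158) at 48 h in barcodes over 30%, 11.6-fold lower (10.8 to 12.5). In barcodes under 2% it was at 980 CPM (973 to 987) and 218 CPM (202 to 235), 4.49-fold lower (4.17 to 4.85). Mup12 (60737383 to 60741326) was at 507 and 59.6 CPM over 30%, 8.52-fold lower (7.57 to 9.62), and at 902 and 71.1 CPM under 2%, 12.7-fold lower (11.1 to 14.5). Mup1 was thus the member with the largest fold in one pool and Mup12 in the other.

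Mup14 and Mup2 were low in every pool. Mup14 (61300023 to 61304000) was at 96.2 and 56.4 CPM over 30%, 1.71-fold lower (1.48 to 1.97), and at 157 and 85.5 CPM under 2%, 1.84-fold lower (1.63 to 2.08). Mup2 (60135932 to 60154289) had 24 and 7 UMIs over 30% and 733 and 7 UMIs under 2%, which gave log2 ratios of -1.60 (-3.06 to -0.34) and -2.06 (-3.38 to -1.01).

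Mup10 (60578260 to 60582199) was the only member higher at 48 h. In barcodes over 30% it was at 73.5 CPM (66.7 to 80.9) at 0 h and 124 CPM (114 to 134) at 48 h, from 425 and 632 UMIs, a log2 ratio of 0.75 (0.57 to 0.93) that was close to the median of all genes. In barcodes under 2% it was at 49.8 CPM (48.3 to 51.4) and 199 CPM (183 to 215), from 3924 and 623 UMIs, a log2 ratio of 2.00 (1.87 to 2.12). The ratio stayed above 0 with each alternative denominator and barcode limit, at 0.19 to 0.95 over 30% and 1.75 to 2.04 under 2%. With all barcodes of each library pooled, both sets and those with 2 to 30% mitochondrial UMIs together, it was 1.40. None of the 98-base windows at the end of its transcripts was its own, and 100% of them also occurred in Mup14, which was lower at 48 h. Along the whole transcript 14.6% of the windows were unique to Mup10.

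**Figure D2:**
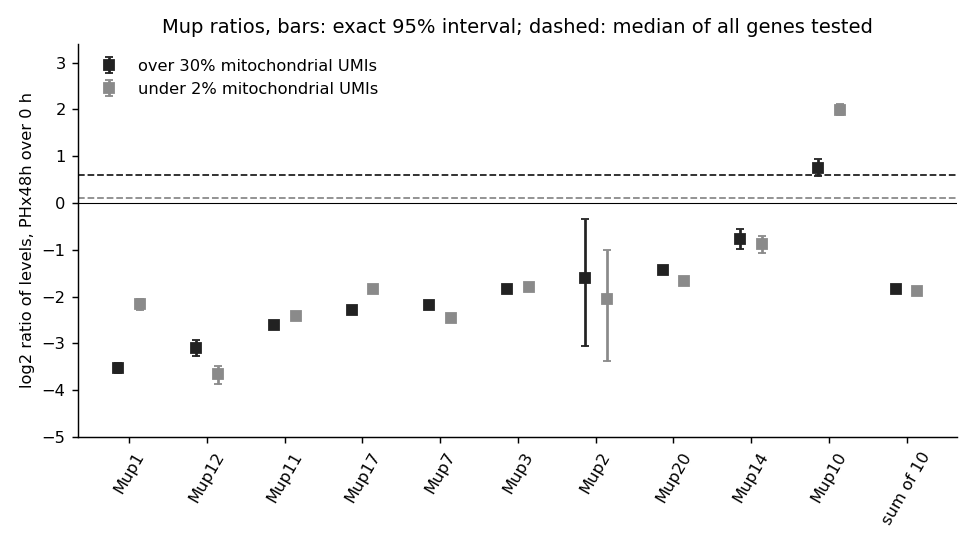
Log2 ratio of levels, PHx48h over 0 h, for each member and for the sum, in barcodes over 30% (black) and under 2% (grey) mitochondrial UMIs, with exact 95% intervals and the median of all genes tested as dashed lines (0.59 and 0.11). Every member except Mup10 lies below 0, and the bars are widest for Mup2, which rests on 7 UMIs at 48 h.

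The other Mup genes added little to the total. With all 21 genes the sum was 79904 and 22078 CPM over 30% and 107110 and 28951 CPM under 2%. Mup9, Mup16 and Mup18 were 5.05-fold, 6.30-fold and 7.92-fold lower over 30%, from 906, 788 and 225 CPM at 0 h. Mup21 was 3.74-fold lower over 30% (3.46 to 4.05) and 1.65-fold lower under 2% (1.52 to 1.79). Mup4, Mup5, Mup8 and Mup15 were at or under 34.4 CPM in every pool, with log2 ratios of -1.31 to -0.61 over 30% and -2.36 to -0.25 under 2%. Mup6 had log2 ratios of 0.37 (-0.32 to 1.07) and -0.43 (-1.05 to 0.14), and Mup19, at 1.57 to 2.82 CPM, of -0.28 (-1.80 to 1.17) and -0.56 (-2.02 to 0.59). Mup13 was higher at 48 h, on 1 and 12 UMIs over 30% (log2 ratio of the UMIs as counted 3.76, 1.01 to 9.18) and 20 and 8 UMIs under 2% (3.33, 1.94 to 4.57). In this gene too, 0% of the 98-base end windows were unique.

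The members separated along the liver lobule. Hepatocytes near the portal vein (periportal) and near the central vein (perivenous) express different metabolic genes, and barcodes were ordered by the perivenous share of UMIs from 14 perivenous and 14 periportal genes, none of them a Mup gene, and split into tertiles within each library. In undamaged barcodes over 30% mitochondrial UMIs, Mup17 was at 1865 CPM in the periportal, 3497 CPM in the middle and 15612 CPM in the perivenous tertile, 8.37-fold higher in the last than in the first (8.08 to 8.67). Mup11 was graded in the same order, at 9431, 13039 and 18288 CPM, a ratio of 1.94 (1.90 to 1.98). Mup3 and Mup20 ran the other way, Mup3 at 30197, 29133 and 19385 CPM with a ratio of 0.642 (0.633 to 0.651) and Mup20 at 32753, 26413 and 16744 CPM with a ratio of 0.511 (0.504 to 0.519). The sum of the 10 members was nearly level, at 79639, 77565 and 75077 CPM, a ratio of 0.943 (0.935 to 0.95).

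The remaining members had smaller zonal ratios in these barcodes. Mup12 was at 0.779 (0.704 to 0.862) and Mup1 at 0.852 (0.807 to 0.899), both lower in the perivenous tertile. Mup7 was at 0.999 (0.960 to 1.04), Mup14 at 1.15 (0.920 to 1.43) and Mup2 at 0.801 (0.239 to 2.43), each with an interval that included 1. Mup10 was at 1.33 (1.04 to 1.69).

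The same order was measured at 48 h in barcodes over 30%. Mup17 was at 538, 878 and 2914 CPM, a perivenous to periportal ratio of 5.42 (5.08 to 5.78), and Mup11 at 1791, 2246 and 2742 CPM, a ratio of 1.53 (1.46 to 1.60). The ratio was 0.691 (0.673 to 0.710) for Mup3 and 0.515 (0.502 to 0.528) for Mup20, and 0.788 (0.776 to 0.800) for the sum. Tertiles were cut within each library and covered unlike ranges of the score, 0.667 to 1 at 0 h and 0.467 to 0.949 at 48 h for the perivenous one, so they were not set against each other between the time points. Median depth differed between the periportal and perivenous tertiles, at 1411 and 1197 non-mitochondrial UMIs at 0 h and 7028.5 and 3683.5 at 48 h. At 0 h, in barcodes with at least 1000 non-mitochondrial UMIs, the log2 zonal ratio of Mup17 was 2.998, beside 3.07 in all. The part of depth in the order at 48 h was not tested.

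**Figure D3:**
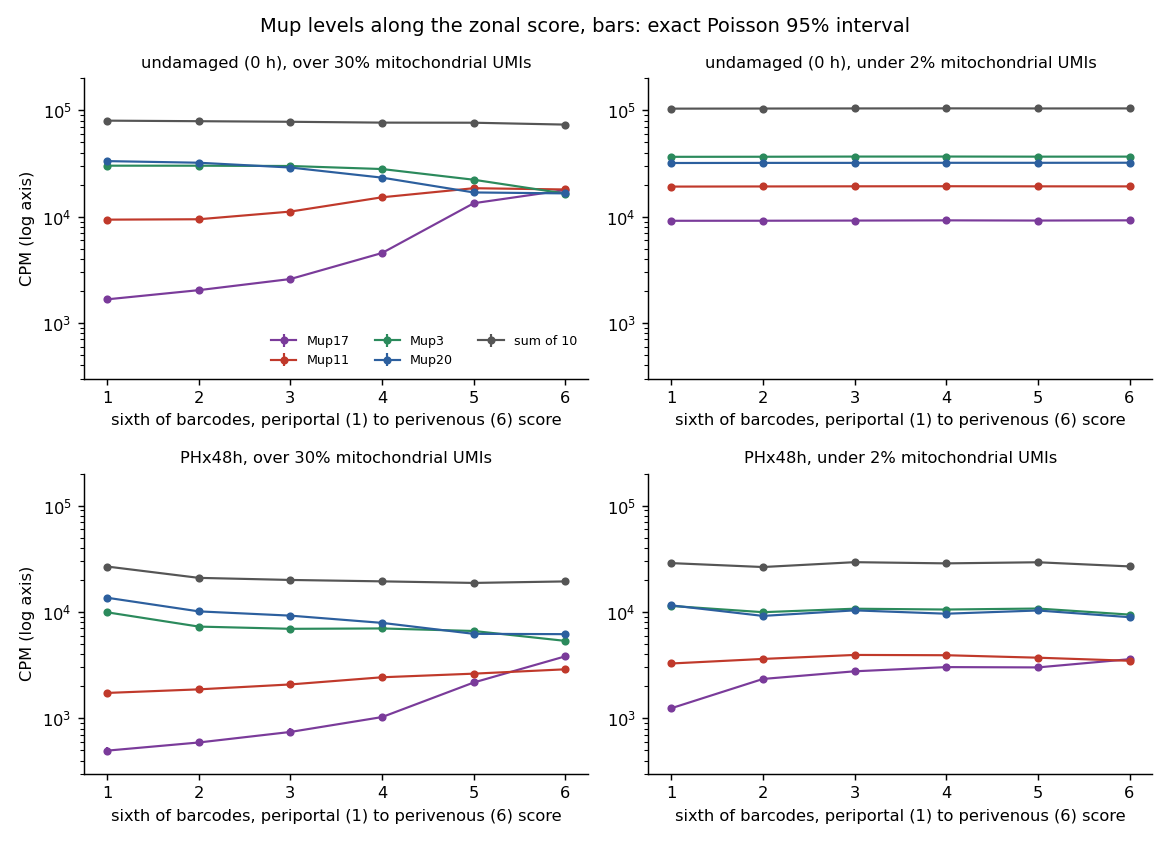
Levels in CPM (log axis) of Mup17, Mup11, Mup3, Mup20 and the sum of 10 members in 6 bins of barcodes ordered by the zonal score, from periportal (1) to perivenous (6), for each library (rows of panels) and mitochondrial set (columns), with exact Poisson 95% intervals. In undamaged barcodes over 30% Mup17 goes from 1670 to 17831 CPM and Mup20 from 33357 to 16574 CPM, whereas in undamaged barcodes under 2% every line is level.

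In undamaged barcodes under 2% mitochondrial UMIs no member had such an order. Mup17 was at 9162, 9221 and 9223 CPM over the tertiles, a ratio of 1.007 (1.001 to 1.012), and the ratios of the 10 members lay between 0.941 and 1.08. The zonal genes themselves were as level there. When tertiles were drawn with every other zonal gene, the perivenous share of the zonal genes held out was 89.2%, 89.4% and 89.3%, beside 62.8%, 81.2% and 96.9% in undamaged barcodes over 30%. In PHx48h barcodes the held-out share was 30.9%, 51.0% and 88.5% over 30% and 58.5%, 71.6% and 75.4% under 2%. Mup17 was at 1699, 2898 and 3307 CPM in PHx48h barcodes under 2%, a ratio of 1.95 (1.84 to 2.06), and the ratios of Mup3 and Mup20 were 0.934 (0.910 to 0.960) and 0.910 (0.886 to 0.935).

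The family sum was next described barcode by barcode. Each barcode was thinned to 500 non-mitochondrial UMIs, which left out 75 undamaged barcodes over 30% and 0 of the other sets. In undamaged barcodes over 30% the family took a median of 37 of the 500 UMIs (5th to 95th percentile 23 to 54) with a variance over mean of 2.39, where random draws from 1 pool give about 1. In undamaged barcodes under 2% it took 52 (40 to 64) with a variance over mean of 1.06. At 48 h the median was 10 (4 to 20) over 30% and 14 (6 to 22) under 2%, with variances over mean of 2.13 and 1.90. Every thinned barcode of the 4 sets held at least 1 family UMI.

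Mup17 varied most among undamaged barcodes over 30%. It had a median of 1 and a 95th percentile of 15 UMIs, with a variance over mean of 7.01, followed by Mup20 at 3.78, Mup11 at 2.40 and Mup3 at 1.83, while Mup7 was at 1.06 and Mup1 at 1.15. In undamaged barcodes under 2%, Mup17 had a median of 4, a 95th percentile of 8 and a variance over mean of 1.02, and the members lay between 0.999 and 1.07. Over the 3795 thinned undamaged barcodes over 30%, the Spearman correlation was 0.346 between Mup3 and Mup20, 0.324 between Mup11 and Mup17, -0.359 between Mup11 and Mup20 and -0.300 between Mup3 and Mup17. Over the 52587 barcodes under 2% these pairs lay between -0.000305 and 0.0135. The barcodes of a set share 1 library and a fixed total, so these correlations are descriptions.

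**Figure D4:**
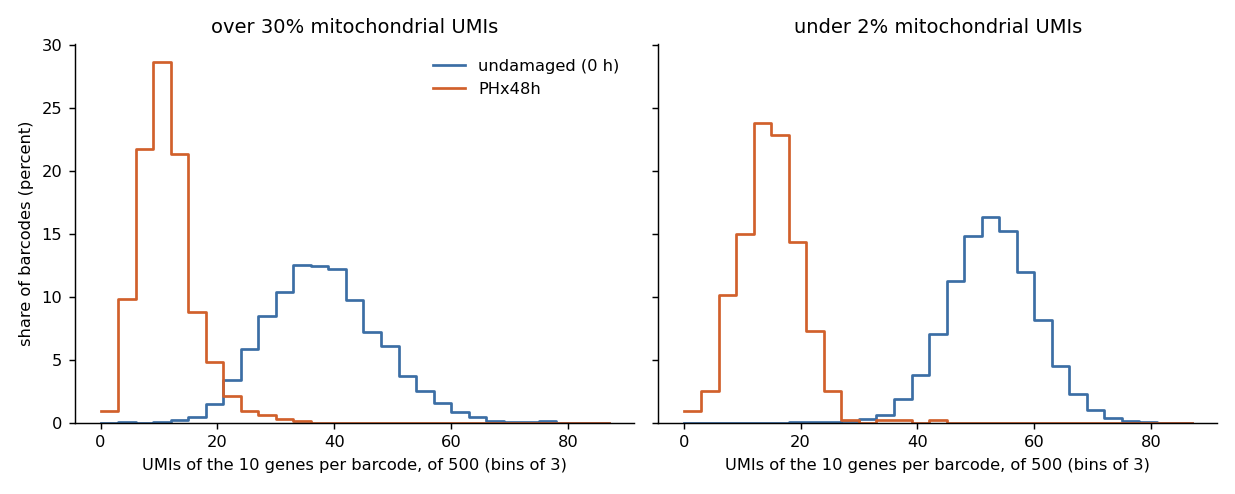
Share of barcodes (percent) by the number of UMIs of the 10 Mup genes among 500 non-mitochondrial UMIs, in bins of 3, for undamaged (blue) and PHx48h (orange) barcodes over 30% (left) and under 2% (right) mitochondrial UMIs. The medians are 37 and 10 on the left and 52 and 14 on the right.

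The mitochondrial share itself moved with the levels. Within the undamaged library the family sum over 30% was 0.741 times that under 2% (0.739 to 0.744), and within the PHx48h library 0.763 times (0.756 to 0.770). Among undamaged barcodes Mup1 and Mup10 were higher over 30%, at 1.74 times (1.71 to 1.78) and 1.48 times (1.33 to 1.63) their level under 2%, while the other 8 members lay at 0.446 to 0.809 times. At 48 h every member was lower over 30%, from 0.477 times for Mup17 to 0.95 times for Mup20, with intervals including 1 for Mup2 and Mup12. Across finer limits the undamaged sum went from 104490 CPM at 0 to 1% to 74635 CPM at 50 to 60%, and Mup1 from 982 to 2020 CPM. The PHx48h sum was 28054 CPM at 0 to 1%, 15415 to 19966 CPM between 2 and 30%, and 19024 to 24567 CPM above 30%.

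**Figure D5:**
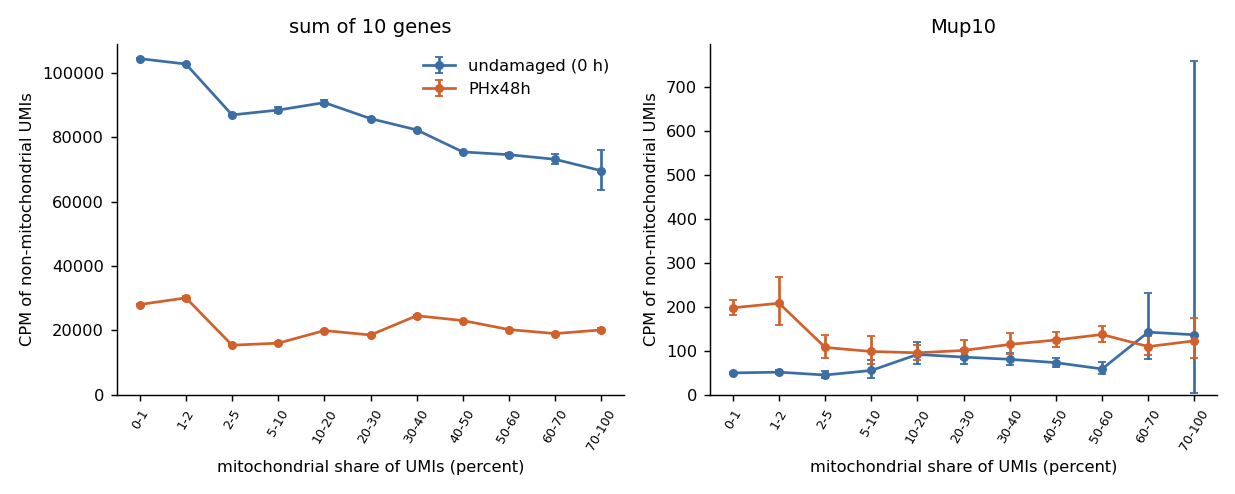
Level in CPM of the sum of 10 members (left) and of Mup10 (right) by mitochondrial share of UMIs in the undamaged (blue) and PHx48h (orange) libraries, with exact Poisson 95% intervals. The sum is lower at 48 h in every bin, and the Mup10 intervals of the libraries overlap from 5 to 40% and above 60%.

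Barcodes led by other cell types also carried Mup transcripts. In the undamaged library 190 barcodes with macrophage markers (median 2827 non-mitochondrial UMIs) held 49950 CPM of the family sum (49359 to 50548), and 99 with endothelial markers (median 2561) held 48660 CPM (47869 to 49461). In the PHx48h library 23 with stromal markers (median 6533) held 10129 CPM (9642 to 10635). A family UMI was present in 100% of these barcodes. Doublets were not removed, and which cells these UMIs came from was not tested. Few such barcodes lay in the sets compared, 2 and 53 at 0 h and 0 and 3 at 48 h over 30% and under 2%.

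Hepatocytes are known to divide around 48 h after PHx, and the sum was compared between barcodes with few and many proliferation transcripts. Over 30% mitochondrial UMIs it was 21047 CPM (20833 to 21263) in the lowest, 20367 CPM (20149 to 20586) in the middle and 23209 CPM (22981 to 23438) in the highest tertile, a ratio of 1.10 (1.09 to 1.12). Under 2% the ratio was 0.993 (0.977 to 1.01). Median depth over 30% was 5012, 4669 and 3808 non-mitochondrial UMIs in the lowest, middle and highest tertiles. The part of depth in the ratio was not tested. Mup3, at 7278 and 8338 CPM in the lowest and highest tertiles over 30%, had a ratio of 1.15 (1.12 to 1.17). Under 2% its ratio was 1.01 (0.988 to 1.04). Mup20 had 1.06 (1.04 to 1.08) over 30% and 0.912 (0.888 to 0.937) under 2%. Mup11 had 1.12 (1.07 to 1.17) and 1.09 (1.04 to 1.14), and Mup17 1.14 (1.07 to 1.21) and 1.09 (1.03 to 1.15). The ratios of Mup10, 1.08 (0.885 to 1.31) and 1.02 (0.837 to 1.25), had intervals that included 1.

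The setting of Mup transcription was examined as a list of 16 genes that holds hormone receptors and transcription factors as well as products and targets of growth hormone signalling. In barcodes over 30%, 5 of the 11 tested were at least 2-fold lower at 48 h and 0 higher, beside 5.62% and 32.6% of all genes. Their median log2 ratio was -0.83. The 5 were Onecut1, the growth hormone receptor gene Ghr, and Cish, Socs2 and Igfals, which are targets or products of the pathway. The names of Ghr, Socs2, Igfals and Stat5b were added after their values were seen. Under 2%, 6 of 9 were lower and 0 higher, beside 22.3% and 26.7% of all genes, with a median of -1.45. Onecut1, a transcription factor of the growth hormone response, was at 40.2 and 9.80 CPM over 30%, a log2 ratio of -2.04 (-2.51 to -1.59). Cish, an inhibitor that STAT5 induces, was at 39.1 and 10.2 CPM, a log2 ratio of -1.94 (-2.40 to -1.50). At the other end of the list were Nr3c1, the glucocorticoid receptor, at 52.4 and 71.3 CPM with a log2 ratio of 0.44 (0.22 to 0.67), and Stat5a at 7.44 and 11.4 CPM with 0.61 (0.02 to 1.21). Both pointed the other way under 2%, where Nr3c1 was at 88.7 and 30.3 CPM, a log2 ratio of -1.55 (-1.86 to -1.26), and Stat5a, with 496 and 11 UMIs, at -0.84 (-1.86 to 0.01). Socs2 was not lower under 2%, at 13.4 and 15.3 CPM, a log2 ratio of 0.19 (-0.26 to 0.61). Stat5b had a log2 ratio of -0.04 (-0.49 to 0.41) over 30% and of -1.45 (-2.19 to -0.80) under 2%.

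Other genes with a male bias in liver were given by a list of 16 chosen genes. Of 14 tested over 30%, 9 were at least 2-fold lower, 1 was higher and the other 4 were neither (median log2 ratio -2.40). Of all genes, 5.62% were lower and 32.6% higher. Under 2%, 13 of 14 were lower and 1 higher (median -3.07), beside 22.3% of all genes lower and 26.7% higher. Elovl3, a fatty acid elongase, was at 821 and 5.49 CPM over 30%, and Hsd3b5, a steroid-metabolising enzyme, at 231 and 9.21 CPM, with log2 ratios of -7.23 (-7.82 to -6.69) and -4.65 (-5.10 to -4.23). Selenbp2, a selenium-binding protein, was at 1231 and 1185 CPM (log2 ratio -0.05, -0.10 to 0.00) over 30% but at 1200.3 and 475 CPM (-1.34, -1.41 to -1.26) under 2%. Gstp1, a glutathione transferase, was the gene that was higher, at 8.48 and 947 CPM over 30% (6.80, 6.397 to 7.24). Of 16 female-biased genes only Abcd2 and Cyp2a4 reached 10 CPM over 30%, both at 48 h, at 0.519 and 21.9 CPM and at 0.173 and 10.97 CPM, and 0 of the 16 did under 2%. Such genes with near-identical copies, Gstp1, Hsd3b5 and Cyp2a4 among them, carry the same uncertainty as the Mup genes.

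Other secreted carriers were counted in the same way. Beside them, 5.62% of all genes were lower and 32.6% higher over 30%, and 22.3% and 26.7% under 2%. Of the 10 other lipocalin genes tested over 30%, 3 were at least 2-fold lower and 2 higher (median log2 ratio 0.02), and of 8 tested under 2%, 0 were lower and 5 higher (median 2.39). Ptgds, the lipocalin-type prostaglandin D synthase, was at 31.5 and 1.96 CPM over 30% and Obp2a, an odorant-binding protein, at 11.2 and 3.14 CPM. Orm2 and Lcn2, acute-phase lipocalins, were at 63.7 and 558 CPM and at 5.36 and 645 CPM, log2 ratios of 3.13 (2.97 to 3.29) and 6.91 (6.402 to 7.47). Among 23 genes of abundant plasma proteins 7 were at least 2-fold lower and 1 higher over 30% (median -0.55, beside 0.59 over all genes tested), and 9 and 1 under 2% (median -0.48, beside 0.11). The lowest ratios over 30% were those of the protease inhibitor genes Serpina1e, at 15905 and 4170 CPM, and Serpina3k, at 31294 and 9685 CPM, and the highest those of Hpx, the heme carrier hemopexin, at 7388 and 18307 CPM, and Ahsg, the fetuin-A gene, at 6676 and 9392 CPM. Under 2%, Ahsg was lower at 48 h, at 5838 and 4193 CPM, a log2 ratio of -0.48 (-0.50 to -0.45).

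The genes whose pair of log2 ratios, over 30% and under 2%, lay nearest to that of the family sum were Tlcd2, Hhex, Slc10a1, 1300017J02Rik, Tm7sf2, Cd82, Slc22a7, Dhrs3, Apon and Atp6v0a1, at distances of 0.160 to 0.371 among 1548 candidates. Slc10a1, the bile acid uptake transporter of hepatocytes, had ratios of -1.70 and -1.69, and Hhex, a liver transcription factor, of -1.88 and -1.65. Across undamaged barcodes over 30%, no gene followed the family sum closely. The highest Spearman correlation among 114 candidates was 0.119, for Sepp1, the plasma selenium carrier, followed by Mgst1, Cyp3a11, Serpina3k, Cyp2f2, B2m, Alb, Tdo2, Cps1 and Pgrmc1 down to 0.0505, over 3795 barcodes of 1 library thinned to 1 depth.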

How the data were processed

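UMI counts per gene and barcode were deposited by the authors as whole numbers without normalization. Per the labels the reads were processed with Cell Ranger and the build mm10, and the Cell Ranger version, the annotation and the treatment of reads shared by near-identical genes are not given in the sources used here. Gene symbols came from the files. The members and the gene lists were chosen with earlier results of these data known.

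Barcodes with over 30% or under 2% UMIs of 13 mitochondrial genes were pooled per library, and levels were set per 1000000 non-mitochondrial UMIs (CPM). The authors' methods removed barcodes of high mitochondrial content and possible doublets, with no limits stated, and neither was done here. The study kept fewer cells than the barcodes counted here, and far fewer from undamaged liver. Whether it kept barcodes like those over 30% is not stated. No test was run, since each time point has 1 library. Ratios carry exact conditional binomial 95% intervals. A gene was tested, meaning compared, at 10 CPM or more in either library and called at 2-fold, with UMIs under 3 set to 3 for calls and list medians but not for the ratios of Mup genes. Lists with their counts were growth hormone signalling and other regulators, male-biased, female-biased, other lipocalins, abundant plasma proteins, zonal genes, proliferation genes and cell type markers. Over 30%, 9 of 14 perivenous genes were lower and 0 higher, 2 of 14 periportal genes lower and 5 higher, and 0 of 20 proliferation genes lower and 20 higher. Under 2%, 8 of 14 perivenous genes were lower and 0 higher, 7 of 14 periportal genes lower and 2 higher, and 0 of 19 proliferation genes lower and 19 higher. Of all genes, 5.62% were lower and 32.6% higher over 30%, and 22.3% and 26.7% under 2%. Zonal tertiles needed at least 10 zonal UMIs per barcode. Barcodes of other cell types had at least 10 UMIs and 1% of non-mitochondrial UMIs from a marker list. Genes were named by rule: all members, other Mup genes with at least 10 UMIs in a pool, the 2 highest and 2 lowest ratios of a list over 30%, and the 10 nearest genes by ratio (at least 50 CPM at 0 h) and by Spearman correlation (mean of at least 0.5 UMIs).

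Windows, coding sequences and positions came from GENCODE M21, upstream sequences from RefSeq. Python 3.11.15, NumPy 2.4.6, SciPy 1.17.1, pandas 2.3.3, edlib 1.3.9.post1, R 4.3.3 and edgeR 4.0.16 (TMM factors as an alternative) were used. The call rule was tested on simulated data.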

Additional observations from a re-analysis of the deposited data

Results flagged for a closer look

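Barcodes with 2 to 30% mitochondrial UMIs were outside both sets compared, and they also carried Mup transcripts. In these barcodes the sum of the 10 members was at 87292 CPM in the undamaged library and 18244 CPM in the PHx48h library. Mup10 was at 60.2 CPM and 99.5 CPM there. With 1 library per group the search for a sample apart from its group could not be made.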

How the results depend on the processing

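The family sum had log2 ratios of -1.84 over 30% and -1.88 under 2% mitochondrial UMIs, and was lower at 48 h under every alternative run. The ratios were -2.10 over 30% with all UMIs as the denominator, -2.11 and -2.13 without the Mup and the 20 most abundant genes, -2.40 and -2.03 with TMM factors, -1.91 and -1.90 with limits of 50% and 1%, -2.18 with all barcodes of each library, -1.86 over 30% with at least 1000 non-mitochondrial UMIs, -1.81 and -1.87 as the mean of single barcodes, and -1.86 over 30% with all 21 Mup genes. Without the 148 shared barcode sequences, an alternative added after seeing the data, the family ratios moved by less than their intervals. Members at least 2-fold lower numbered 7 or 8 of 9 tested over 30%, beside 5.56% to 16.2% of all genes. Under 2% they numbered from 7 of 9 to 9 of 10 tested, beside 22.0% to 28.3%. With all barcodes they were 8 of 9, beside 7.12%. Of 180 member ratios, 103 stayed within the counting interval, 77 moved and 0 turned direction. The 180 are not separate checks. The limit of 1000 UMIs left out no barcode under 2%, so those ratios could not move. The ratios from all barcodes were counted once for each set.

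With every gene with a UMI, 12.5% of genes were lower and 47.5% higher under 2%, where fewer than 3 UMIs were set to 3. The zonal log2 ratio of the sum, from thinned barcodes, was -0.05 at 0 h and -0.20 at 48 h over 30% and -0.05 at 48 h under 2%. Without thinning it was -0.085 and -0.34, and 0.011 under 2%, where its direction turned, and with every other zonal gene it was -0.15 under 2% at 48 h. Mup11 turned from 0.071 to -0.025 in that set with every other zonal gene. The cause was not tested. Thinned to 1000 UMIs, the variance over mean of the sum was 3.85 at 0 h over 30%, and 3.46 and 3.04 at 48 h over 30% and under 2%. The lowest members rest on few UMIs, and no interval covers variation between mice.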
